A study of Mus musculus with 1536 samples.

Results

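These cells are serotonin neurons of the mouse raphe in which Rorb, Gal and Crhr2 were read and Npy2r and Irx2 were not or hardly read. They were chosen by measured values: Rorb of at least 30 CPM (reads on a gene, scaled so that all cells have the same total), at least 1 read of Gal, Crhr2 of at least 5 CPM, Npy2r below 5 CPM and Irx2 below 5 CPM. The rule was applied to the 709 cells of 11 plates, and 52 cells met it, or 7.33% (5.53 to 9.51%, exact Clopper-Pearson 95% interval, which covers counting error only). They are called members here, and the other 657 cells of the same plates are the cells they were set against. The 5 genes of the rule chose the members, so their values are given as a description and they were left out of every comparison.

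Cells were taken from Sert-Cre;Ai14 mice on a C57BL/6J background, 40 to 45 days old, in which Cre made from the Sert gene turns on the red protein tdTomato, so that any cell in which that gene was ever active can be sorted. All cells carry both alleles and had no treatment. The labels of the 11 plates name the whole dorsal raphe (DR), and the study states that this dissection also took in the median raphe. Sorting put single cells in the wells of a plate, and a Smart-seq2 library of full-length polyadenylated RNA was prepared from each. The labels name plates but no animals, so the dissection was treated as 1 sample and no test was made between sets of cells. The study took these cells from several brains, fewer than the 11 plates, and used mice of both sexes. Plates can therefore share an animal and are not independent repeats. Counts of plates that go the same way are a description and do not replace a test. The other dissection, of the principal DR alone, held 290 cells, of which 5 met the rule, and these were not described further.

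Serotonin neurons make serotonin from tryptophan with Tph2 and Ddc, load it into vesicles with Vmat2 (Slc18a2) and take it back up with Sert (Slc6a4). Some of them also carry Vglut3 (Slc17a8), which loads glutamate into vesicles, or the enzymes Gad1 and Gad2 that make GABA. Rorb is a nuclear receptor of the ROR family, Gal encodes the neuropeptide galanin, Crhr2 is a receptor for urocortins and related peptides, Npy2r is a receptor for neuropeptide Y, and Irx2 is an Iroquois homeobox factor.

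The members were found on all 11 plates, between 2 and 11 on a plate with a median of 4. Their share was lowest on plate SER63, with 3 of 80 cells or 3.75% (0.780 to 10.6%), and highest on plate SER64, with 11 of 77 cells or 14.3% (7.35 to 24.1%). The median over plates was 7.41%. The intervals of these 2 plates overlap, and whether the share differs between plates was not tested.

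**Figure D1:**
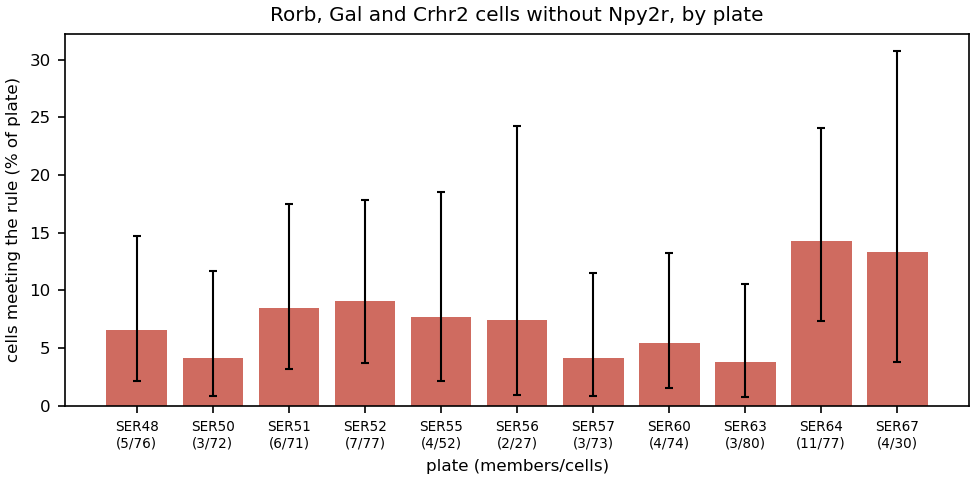
Share of each plate's cells that met the rule, in percent, with exact 95% intervals as lines and the numbers of members and cells under each plate. Members were present on all 11 plates, with shares from 3.75 to 14.3%.

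Within the members the level of Rorb ran from 32.2 to 303 CPM with a median of 148 CPM, that of Gal from 0.751 to 296 CPM with a median of 51.0 CPM, and that of Crhr2 from 8.14 to 190 CPM with a median of 60.0 CPM. Npy2r had no read in 48 members and Irx2 in 51. There were 100 cells that missed exactly 1 of the 5 conditions: 36 were kept out by Npy2r alone, 27 by Rorb, 19 by Gal, 12 by Crhr2 and 6 by Irx2. Just inside the Rorb threshold lay members at 32.2 and 37.5 CPM, and just outside it cells at 29.0 and 24.4 CPM. For Crhr2 the lowest members had 8.14 and 17.1 CPM, and of the 12 cells that missed this condition 11 had no read. For Npy2r the highest members had 4.58 and 3.22 CPM and the lowest cells outside had 7.55 and 7.97 CPM.

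The members were sequenced about as deeply as the rest. Reads on genes had a median of 983927 per member (171973 to 1924110) and 863589 per other cell (96834 to 2493904), and detected genes a median of 9884 and 9436. After every cell was thinned to 250000 reads, which left out 1 member and 7 other cells, the medians were 8942 and 8611 genes. Shares of cells with a read are therefore given as counted and, for some genes only, also after thinning.

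All 52 members carried the markers of serotonin neurons. Tph2, the enzyme that starts serotonin synthesis, had reads in all 52 members at a mean of 11472 CPM, with plate means between 10383 and 14692 CPM, against 10096 CPM in the other cells. It was higher in 10 of 10 plates with at least 3 members, but by a log2 ratio of 0.18 ± 0.15 (SD over plates, as with each log2 ratio below that carries a ±), which is 1.14-fold. Slc6a4 was at 4069 against 3580 CPM, a log2 ratio of 0.18 ± 0.15, and Ddc at 2868 against 2846 CPM. Fev (Pet1), the transcription factor that maintains serotonin identity, was lower in 10 of 10 plates, at 151 against 224 CPM and a log2 ratio of -0.57 ± 0.23. Slc18a2 was also lower in 10 of 10 plates, at 2341 against 2958 CPM and a log2 ratio of -0.34 ± 0.23. None of the 12 genes of serotonin synthesis, transport and breakdown differed by 2-fold. Among them, Maob, a monoamine oxidase that breaks amines down, was higher in 10 of 10 plates at 1243 against 907 CPM, a log2 ratio of 0.45 ± 0.38.

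To see what these cells carry beside the genes of the rule, mean CPM was compared with that of the other cells. A gene was called where the log2 ratio of mean CPM plus 1 was at least 1 in size and had the same sign within all but at most 1 of the 10 plates with at least 3 cells in each set. Of 8229 genes with a mean of at least 10 CPM in either set, 32 were called higher in the members (0.389%) and 129 lower (1.57%), and the median log2 ratio of all tested genes was -0.04. The plate means of the members and of the other cells did not overlap at all in 8 of the 32 higher genes and in 48 of the 129 lower genes. The members' side of each plate mean rests on 3 to 11 cells.

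The genes highest against the other cells by ratio, among those with a read in at least 50% of members, were Ppp1r17, Cpne9, Cpt1a, Zbtb7c, Ramp3, Wnt4, P2rx2, Gstm7, Cited1, Tle2, Rgs16, Htr5b, Akap5, Aldh3b2 and Pcdh17. Cpne9, which encodes a calcium-dependent membrane-binding protein of the copine family (chromosome 6, 113282307 to 113305627, GENCODE M21 on GRCm38, as are all coordinates here), was at 171 CPM in the members and 45.6 CPM in the others. Its plate means in members ran from 76.6 CPM on plate SER60 to 272 CPM on plate SER67 with a median of 168 CPM, and those of the other cells from 31.8 to 62.2 CPM. The plate means did not overlap, and the log2 ratio was 1.89 ± 0.70. It had reads in 51 of 52 members, 98.1% (89.7 to 100%), and in 71.5% (67.9 to 75.0%) of the others.

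Ppp1r17 (chromosome 6, 56017497 to 56032689), which encodes an inhibitor subunit of protein phosphatases, had the highest ratio of these, 2.08 ± 1.68, and was unevenly spread. Its mean was 18.2 against 3.55 CPM, and it had reads in 28 of 52 members, 53.8% (39.5 to 67.8%), against 12.8% (10.3 to 15.6%) of the others. On plate SER67 it had no read in the 4 members. Htra1, which encodes a secreted serine protease, had a similar pattern, with 19.9 against 3.80 CPM and reads in 55.8% against 14.0% of cells. It was higher in 8 of 10 plates, 1 fewer than a call needs, since the members of plates SER50 and SER57 had no read of it.

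Beside Cpne9, 3 of the 15 genes had plate means that stood apart, and these were read in every member or all but 2. Cited1, which encodes a transcriptional co-regulator (chromosome X, 102247381 to 102252181), was at 490 against 191 CPM, with plate means of 302 to 643 CPM in members and 132 to 231 CPM in the others, and a log2 ratio of 1.35 ± 0.31. Gstm7, a glutathione S-transferase (chromosome 3, 107926334 to 107931817), was at 146 against 56.5 CPM, with plate means of 104 to 224 CPM and of 40.0 to 66.0 CPM, and a log2 ratio of 1.36 ± 0.45. Pcdh17, a protocadherin of the cell surface (chromosome 14, 84443563 to 84539002), was at 87.2 against 35.6 CPM, with plate means of 63.3 to 103 CPM and of 31.7 to 40.9 CPM. Its log2 ratio of 1.27 ± 0.24 had the least spread between plates of the 15.

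Several of the others act in signalling at the membrane. Ramp3, which partners the calcitonin receptor-like receptor and the calcitonin receptor, was at 40.5 against 13.5 CPM in 88.5% against 35.5% of cells (90.2% against 34.6% after thinning), higher in 10 of 10 plates. Wnt4, a secreted Wnt ligand, was at 30.2 against 10.6 CPM in 90.4% against 43.1% of cells, higher in 9 of 10. P2rx2, an ATP-gated channel, was at 11.3 against 3.66 CPM in 57.7% against 17.5% of cells, with no read in the members of plate SER60. Rgs16, which shortens G protein signals, was at 25.2 against 9.35 CPM, and Akap5, an anchor of protein kinase A, at 31.5 against 12.1 CPM. Each of these 5 was called, and their plate means overlapped between the sets. The call of P2rx2 was lost with a pseudocount of 5 CPM, at a log2 ratio of 0.91, and when members had to have 0 reads of Npy2r and Irx2, at 1.31.

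Among the rest, Cpt1a, which admits long-chain fatty acids to mitochondria, was at 13.9 against 3.42 CPM, and Aldh3b2, an aldehyde dehydrogenase, at 34.7 against 13.7 CPM. The transcriptional regulators Zbtb7c and Tle2 were at 14.3 against 4.36 CPM and 11.6 against 3.98 CPM. Cpt1a and Zbtb7c were higher in 10 of 10 plates and the other pair in 9 of 10. The levels of all 4 were low in both sets, and plate means overlapped.

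**Figure D2:**
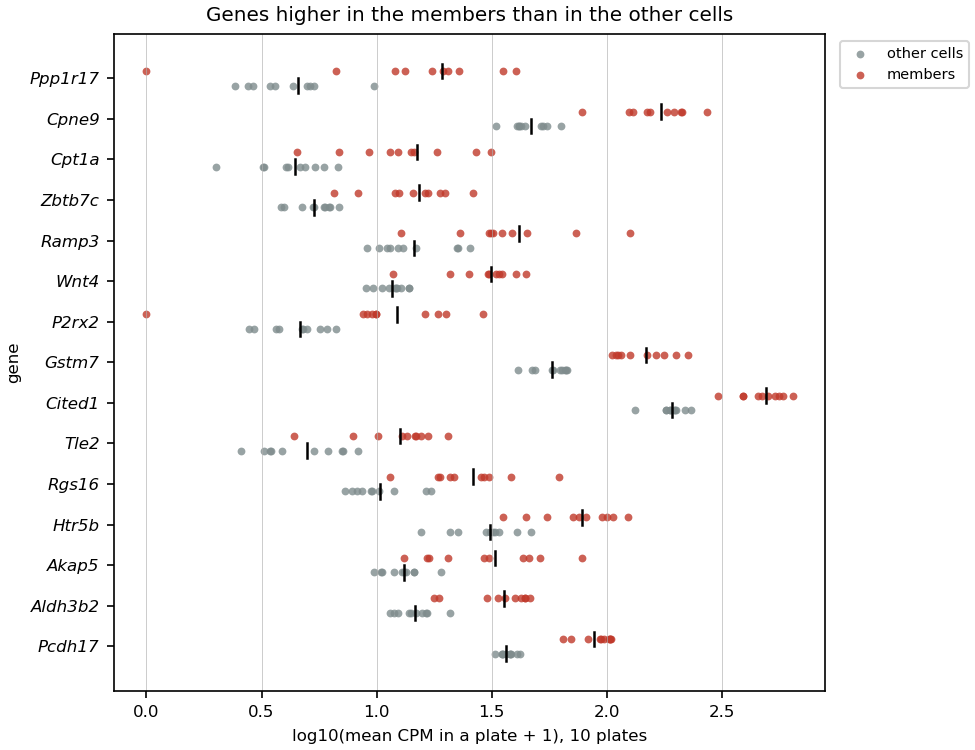
Mean CPM on the log10(CPM + 1) scale in each of the 10 plates with at least 3 members (points), for the members and for the other cells, with the mean over all cells of each set as a black bar, for the 15 genes with the highest ratio. For Cpne9, Cited1, Gstm7 and Pcdh17 no member point reached the points of the other cells.

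Some of the genes with the lowest ratios had no read in any member. Calcr, the calcitonin receptor (chromosome 6, 3685680 to 3764714), had no read in 52 members, which allows a share of up to 5.77% (3 of 52, the floor of 3 counts used for a count of 0), and had reads in 164 of the 657 other cells, 25.0% (21.7 to 28.5%), at a mean of 49.5 CPM. With 3 reads over all members as the floor, its mean in these 52 cells was at least 817-fold lower. That bound covers the counting of reads and not the sampling of cells. It would not hold if up to 5.77% of such cells carried the gene. Asb4, a subunit of ubiquitin ligases, likewise had no read in any member and reads in 19.8% (16.8 to 23.0%) of the others. By the same floor, and with the same limit, it was at least 710-fold lower. Both folds are against all 657 other cells together. Low values of Asb4 were also found in cells that carry Crhr2 and Npy2r (given below). Spp1 (osteopontin), Trh, the thyrotropin-releasing hormone precursor, and Piezo2, a mechanically gated channel, also had no read in a member, against 8.37%, 6.09% and 18.4% of the other cells.

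Calb2, which encodes the calcium-binding protein calretinin (chromosome 8, 110137502 to 110168210), was low in level rather than unread. It had reads in 15 of 52 members, 28.8% (17.1 to 43.1%), or 15.7% after thinning, but the highest member had 4.78 CPM, and the mean was 0.855 CPM against 85.1 CPM in the others. Plate means in members ran from 0 to 1.70 CPM and in the other cells from 45.8 to 178 CPM, with no overlap and a log2 ratio of -5.54 ± 0.85. Calb1, which encodes calbindin, was also lower in 10 of 10 plates, at 28.5 against 108 CPM, though the share of cells with a read was alike, 61.5% against 63.5%. Ighm, the constant region of the immunoglobulin mu chain (chromosome 12, 113418558 to 113422730), was at 1.55 against 122 CPM with reads in 4 members and in 38.1% of the others.

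Other genes with reads in fewer than 1 in 5 members included cell surface and secreted proteins. Tpbg, a membrane glycoprotein that modulates Wnt signals, had 3 reads in 1 member and was read in 35.2% (31.5 to 38.9%) of the others. Fam114a1 was read in 2 members against 46.7% of the others, Pcdh11x in 2 against 26.0%, Pcdh7 in 1 against 42.0%, Nell1 in 3 against 36.4% and Nptx1, a neuronal pentraxin of excitatory synapses, in 7 against 39.4%. Prmt8, an arginine methyltransferase of the brain, and Tnfrsf11b (osteoprotegerin, a decoy receptor) were each read in 8 members, against 61.2% and 55.9% of the others. Each of these 8 was lower in 10 of 10 plates, and plate means overlapped for Nell1 and Pcdh7. Thinning moved the shares in members to between 0 and 11.8% and those in the others to between 25.4 and 58.6%.

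Of 4 tested oligodendrocyte markers 2 were called lower, Mbp among them, beside 1.57% of all tested genes. The 10 oligodendrocyte markers summed to between 13.6 and 392 CPM in a member and between 0 and 79858 CPM in another cell, and Mog, Olig1, Olig2 and Cldn11 were at 0 in all members. Astrocyte markers summed to a median of 787 against 759 CPM and microglia markers to 61.5 against 55.8 CPM, with Aqp4, and with Csf1r, C1qb and Tmem119, at 0 in the members. Endothelial markers had a median of 0 in both sets, and the highest sums were 6.31 and 22.9 CPM.

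**Figure D3:**
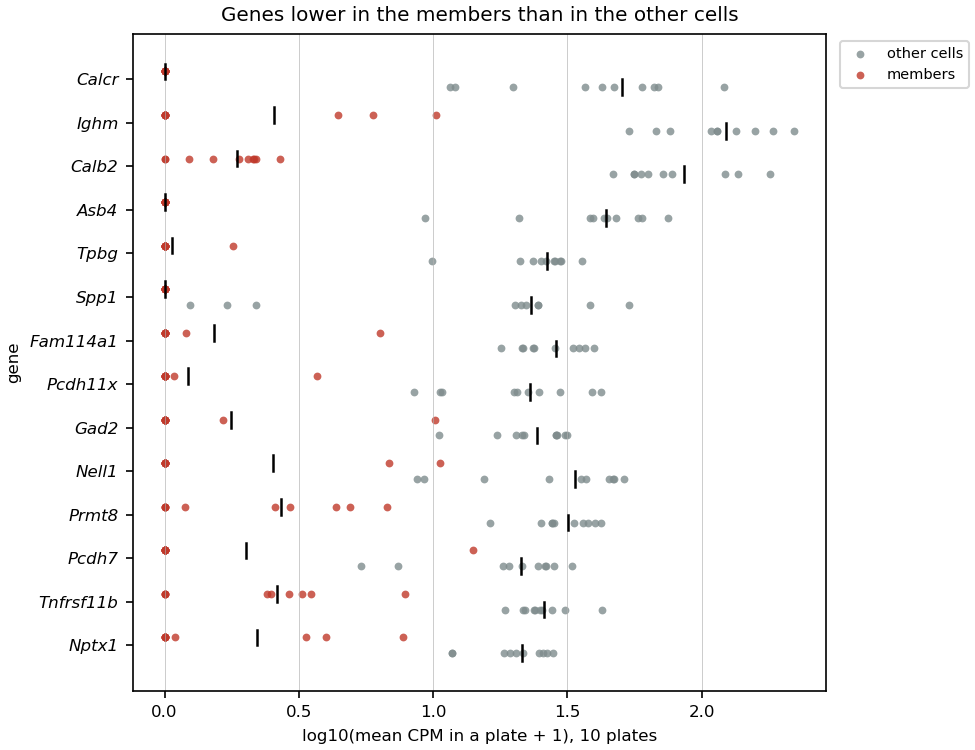
Mean CPM on the log10(CPM + 1) scale in each of the 10 plates (points), for the members and for the other cells, with the mean over all cells of each set as a black bar, for 14 of the 15 genes with the lowest ratio. Calcr, Asb4 and Spp1 sit at 0 in the members of every plate, and Nell1 and Pcdh7 overlap between the sets.

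The members were close to uniform in their second transmitter. Slc17a8 (Vglut3, chromosome 10, 89574020 to 89621253) had reads in 50 of 52 members, 96.2% (86.8 to 99.5%), against 71.2% (67.6 to 74.7%) of the others, and the shares were 96.1 and 70.0% after thinning. Its mean was 200.49 against 91.7 CPM, higher in 9 of 10 plates, with plate means in members from 53.7 CPM on plate SER50 to 322 CPM on plate SER48 and those of the others between 75.8 and 138 CPM. The log2 ratio was 1.12 ± 0.82. Gad2 had reads in 2 members, 3.85% (0.469 to 13.2%), against 23.6% (20.4 to 27.0%) of the others, and was lower in 10 of 10 plates at 0.769 against 23.3 CPM.

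Reads of Gad1 were as rare in one set as in the other, in 3.85% of members and 4.26% of other cells, and its called ratio of -3.35 ± 1.84 rests on the level in those cells. Either Gad gene was read in 3 members, 5.77% (1.21 to 15.9%), each of which also read Slc17a8, against 24.5% (21.3 to 28.0%) of the others. The transporter that loads GABA into vesicles, Slc32a1, was read in 0 members and in 1 of the 657 other cells.

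Of 29 detected neuropeptide genes other than galanin, 4 had a mean of at least 10 CPM. Of these 4 only Trh was called, as lower, beside 1.57% of all tested genes. Adcyap1, which encodes PACAP, had reads in 71.2% of members and 46.3% of the others, at means of 32.1 and 32.6 CPM. Pdyn, the precursor of dynorphins, had reads in 14 members, 26.9% (15.6 to 41.0%), and in 28.5% (25.0 to 32.1%) of the others. Its mean was 12.1 against 40.5 CPM, lower in 8 of 10 plates, so it was not called. Sst, the somatostatin precursor, had no read in a member and was read in 3.04% of the others.

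Of 16 tested receptors for peptides and hormones, 1 was called higher and 3 lower, beside 0.389% and 1.57% of all tested genes, with a median log2 ratio of 0.07. Hcrtr2, a receptor for orexins (chromosome 9, 76225880 to 76323856), was at 44.4 against 19.4 CPM in 88.5% (76.6 to 95.6%) against 42.3% (38.5 to 46.2%) of cells, with a log2 ratio of 1.15 ± 0.46 and higher in 10 of 10 plates. The other orexin receptor, Hcrtr1, was at 275 against 204 CPM with a log2 ratio of 0.43 ± 0.24, also higher in 10 of 10. Calcr (above), Rxfp1, a relaxin receptor, at 1.73 against 13.2 CPM, and Pth2r, a parathyroid hormone receptor, at 3.31 against 12.1 CPM were lower in 10 of 10. The oxytocin receptor Oxtr was read in 80.8% of members (67.5 to 90.4%) and 47.0% (43.2 to 50.9%) of the others at means of 23.9 and 22.9 CPM, a log2 ratio of 0.06 ± 1.34.

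Of 4 tested serotonin receptors 1 was called higher, beside 0.389% of all tested genes. This was Htr5b (chromosome 1, 121509842 to 121528465). Its mean was 77.0 against 30.1 CPM, with plate means of 34.4 to 123 CPM in members and 14.6 to 45.9 CPM in the others. Plate SER52 went the other way with 34.4 against 45.9 CPM, and the log2 ratio was 1.33 ± 0.91. Reads of Htr5b were found in 49 members, 94.2% (84.1 to 98.8%), against 34.6% (30.9 to 38.3%) of the others. Htr1a, the receptor by which serotonin neurons sense their own transmitter, was lower in 10 of 10 plates at 73.5 against 120 CPM, a log2 ratio of -0.70 ± 0.55, and was read in 82.7% against 94.1% of cells.

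Of 14 glutamate receptor genes 1 was called lower, beside 1.57% of all tested genes. This was Grik1, a kainate receptor subunit, at 0.846 against 15.9 CPM. Of 15 GABA and glycine receptor genes 2 were called lower, beside the same 1.57%. Both were without overlap of plate means, among them Gabra4 at 8.77 against 20.7 CPM. The median log2 ratio of this list was -0.37, beside -0.04 for all tested genes, and each of the 15 genes had a mean below that of the other cells. The muscarinic receptor Chrm2, at 10.5 against 67.7 CPM, and the cannabinoid receptor Cnr1, at 0.537 against 12.4 CPM, were lower in 10 of 10 plates. Among potassium channels Kcnd2 was at 13.9 against 50.6 CPM and Kcnc2 at 10.8 against 27.8 CPM.

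In the functional lists given by the study, 1 of 432 tested transcription factors was called higher and 7 lower, and these shares are near those of all tested genes (0.389% and 1.57%). Zbtb7c was the higher one. Pou3f1, a POU domain factor, was read in 13.5% against 42.0% of cells at 0.760 against 19.3 CPM, and Zeb2, Pbx3, Sox11, Egr1, Junb and Nr4a1 were the others. Of 64 axon guidance and adhesion genes Pcdh17 was higher and 9 lower, among them Pcdh11x, Pcdh7, Ncam2 and Cdh13. Ncam2 was at 7.70 against 58.4 CPM and Cdh13 at 81.8 against 266 CPM. Of 36 secreted ligands Wnt4 was higher and Spp1, Trh, Cxcl12 and Efna5 were lower, and of 83 ion channel genes P2rx2 was higher and Piezo2, Kcnd2 and Kcnc2 were lower. Beside 0.389% and 1.57% of all tested genes, these are counts of a few genes and nothing is read from them about the lists.

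Immediate-early genes respond quickly to activity and to dissociation of the tissue. Of 8 tested immediate-early genes 3 were called lower, beside 1.57% of all tested genes. These were Egr1 at 4.14 against 17.7 CPM, Junb at 10.3 against 24.1 CPM and Nr4a1 at 7.04 against 16.7 CPM. Fos was at 129 against 186 CPM, lower in 9 of 10 plates with a log2 ratio of -0.53 ± 0.76. The sum over the 14 genes of the list had a median of 286 CPM in members and 367 CPM in the others, and the part of these genes in the other differences was not tested. No gene was called in the lists of serotonin synthesis, serotonin identity factors, granins and peptide processing, and neurofilaments and cytoskeleton, which have 12, 6, 12 and 11 tested genes.

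Some of these genes were at like levels in the cells that carry Crhr2 and Npy2r together, of which there were 114 with at least 5 CPM of each. Others were not, and Pcdh17, Wnt4 and P2rx2 were called higher in the members here too. Against these 114 cells 24 of 8093 tested genes were called higher in the members (0.297%) and 71 lower (0.877%). Plate means did not overlap for 1 and 15 of the called genes. The sets lay close in Slc17a8 (200.49 against 219 CPM, 96.2% against 98.2% of cells), in the share of cells with either Gad gene (5.77% against 6.14%) and in Htr5b (77.0 against 96.1 CPM), En1 (19.1 against 20.6 CPM) and Htr1a (73.5 against 69.8 CPM). None of these 4 genes named with a level was called. Hcrtr2, which was called higher against all other cells, was not called here either.

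The gene that set the members furthest above the Crhr2 and Npy2r cells was Arhgap36 (chromosome X, 49463945 to 49500244), which encodes a protein that counters protein kinase A. Its mean was 209.8 CPM in the members and 14.9 CPM in the other set, and plate means ran from 97.6 to 379 CPM and from 2.12 to 76.2 CPM without overlap. The log2 ratio was 3.73 ± 1.47, and 44 of 52 members, 84.6% (71.9 to 93.1%), had a read, against 29.8% (21.6 to 39.1%). Against all other cells it was not called, at 209.8 against 228 CPM. Rab3b, a small GTPase of synaptic vesicles, was at 184 against 39.1 CPM with a log2 ratio of 2.21 ± 0.85, higher in 10 of 10 plates and read in all 52 members and 81.6% of the other set.

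Adamts2, a protease that trims procollagen, was at 16.0 against 2.12 CPM, Ramp1, a partner of the calcitonin receptor-like receptor, at 19.0 against 3.34 CPM, P2rx2 at 11.3 against 1.86 CPM and Prkcq, a protein kinase C, at 63.3 against 17.3 CPM. All 4 were higher in 9 or 10 of 10 plates. The receptor subunit gene Gabrq (43.2 against 14.4 CPM), the prolactin receptor Prlr (28.0 against 12.7 CPM), the nuclear receptor Nr2f2 (65.8 against 25.9 CPM) and the calcium sensor Vsnl1 (95.5 against 43.3 CPM) were called higher as well.

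The genes furthest below were Ighm at 1.55 against 92.3 CPM, Tpbg, read in 1 member and in 33.3% of the other set, Calb2 at 0.855 against 26.0 CPM, Serpine2, an inhibitor of serine proteases, at 7.25 against 99.1 CPM, Pcdh7, read in 1 member and in 56.1%, and Mpped2, read in 2 members and in 57.9%. Serpine2 was lower in 10 of 10 plates with no overlap, and 38.5% of members against 88.6% of the other set had a read. Wnt5a, a Wnt ligand, was lower at 19.1 against 46.5 CPM, whereas Wnt4 was higher, and the homeobox gene Pbx3 was at 7.24 against 49.1 CPM. Pdyn was read in 26.9% of members and 59.6% of the other set, but was lower in 8 of 10 plates and not called.

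The members lay further from the 146 cells with at least 5 CPM of Irx2. Of 8274 tested genes 55 were called higher (0.665%) and 142 lower (1.72%), and plate means did not overlap for 13 and 30 of these. Kit, a receptor tyrosine kinase (chromosome 5, 75574916 to 75656722), was at 38.2 against 0.896 CPM, with plate means of 24.8 to 64.7 CPM in members and 0 to 8.69 CPM in the Irx2 cells. Its log2 ratio was 4.37 ± 0.72, and it was read in 46 members, 88.5% (76.6 to 95.6%), and 11 Irx2 cells, 7.53% (3.82 to 13.1%). Ramp3 (40.5 against 4.89 CPM), Htr5b (77.0 against 11.5 CPM), Gsta4, a glutathione S-transferase (147 against 22.8 CPM), Oxtr (23.9 against 3.11 CPM) and Pcp4l1 (37.5 against 6.71 CPM) followed.

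Of 3 tested genes of hindbrain position 1 was called, as higher, beside 0.665% of all tested genes. This was the homeobox gene En1, which marks the anterior hindbrain and midbrain. It was at 19.1 against 3.43 CPM and read in 92.3% (81.5 to 97.9%) against 18.5% (12.6 to 25.8%) of cells, higher in 10 of 10 plates. Sox1 (11.1 against 2.01 CPM), the estrogen receptor Esr2 (14.4 against 3.63 CPM) and Hcrtr2 (44.4 against 10.0 CPM) were also called higher. Slc17a8 was at 200.49 against 44.0 CPM, higher in 10 of 10 plates. Tph2 was at 11472 against 8123 CPM, and its plate means did not overlap, though at a log2 ratio of 0.50 ± 0.23 it was not called.

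Calb2 (0.855 against 50.1 CPM), Grik1 (0.846 against 40.1 CPM), Kctd8, an auxiliary protein of GABA-B receptors (0.226 against 23.6 CPM), Cnr1 (0.537 against 29.7 CPM), Ighm (1.55 against 41.4 CPM) and Tnfrsf11b (1.63 against 36.6 CPM) were the genes furthest below the Irx2 cells. Of 16 GABA and glycine receptor genes 7 were called lower, beside 1.72% of all tested genes, among them Gabra5, Gabre, Gabra4, Gabrq, Gabra2 and Gabrg1. The median log2 ratio over the list was -0.74, beside -0.06 for all tested genes. Gabrq was thus above its level in the Crhr2 and Npy2r cells and, at 43.2 against 102 CPM, below that in the Irx2 cells. Of 15 glutamate receptor genes Grik4 was higher and 4 were lower, among them Grik1, Grm5 and Grm8, beside 0.665% and 1.72% of all tested genes. All 3 comparisons share the members, and the 657 other cells hold the other sets, so their counts are not independent.

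When all 709 cells were grouped by 25517 genes without the 5 genes of the rule, 9 groups were found, and 42 members, 80.8% (67.5 to 90.4%), fell into 1 group of 86 cells that had members from all 11 plates. Its leading genes were Cpne9, Ramp3, Tgfa, Htr5b, Nefm, Pcdh17, Cited1, Gstm7, Wnt4 and Grb14. Members made up 48.8% (37.9 to 59.9%) of this group, and 33 of its other 44 cells missed exactly 1 condition of the rule, 23 of them Npy2r and 7 Gal. Of the 10 members elsewhere, 5 were in a group of 148 cells led by Sostdc1 and Pth2r, 4 in a group of 153 cells led by Sst and Pdyn, and 1 in the group of 10 cells led by Rgs5, Apoe and Mbp. The other 5 groups held no member.

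Among the 15 nearest cells of a member, 47.8% were members on average, against 7.33% of all cells. Crhr2 and Npy2r cells were 27.3% of these neighbours, against 16.1% of all cells, and Irx2 cells were 9.62%, against 20.6% of all cells. Counted among cells of other plates only, members were 47.2% of the neighbours. Among the neighbours of Crhr2 and Npy2r cells 16.4% were members, and among those of Irx2 cells 4.66%.

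**Figure D4:**
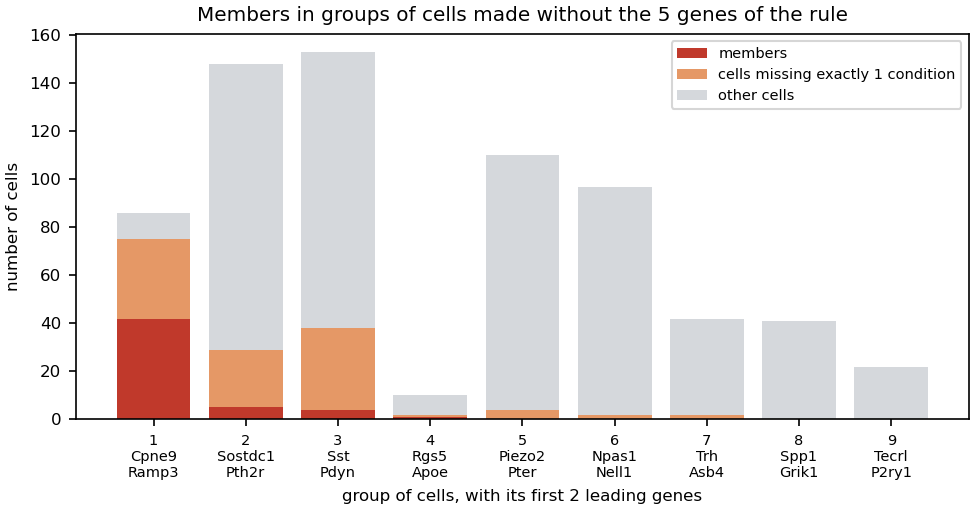
Number of cells in each of the 9 groups made without the 5 genes of the rule, split into members, cells that missed exactly 1 condition and other cells, with the first 2 leading genes under each group. Group 1 held 42 of the 52 members and 33 cells that missed 1 condition.

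The members differed from one another along this line, which is given as a description since the grouping used the same genes. Pdyn had a mean of 4.90 CPM and reads in 19.0% of the 42 members of the leading group, and 42.5 CPM and reads in 60.0% of the 10 members elsewhere. Pcdh17 was at 100.2 against 32.7 CPM, Htra1 at 23.8 against 3.36 CPM and Cpne9 at 187 against 106 CPM. Slc17a8 was alike at 203 and 189 CPM, and the mean of Arhgap36 was 211 and 204 CPM, though it was read in 38 of the 42 and in 6 of the 10. Nell1, Pcdh11x and Pcdh7, rare in members as a whole, had no read in the 42 and were read in 3, 2 and 1 of the 10.

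The 23 cells of the leading group that missed the rule through Npy2r alone shared some of its genes and not others. The group held 34 Crhr2 and Npy2r cells, and only these 23 met every other condition of the rule. Here too the grouping used the same genes, so nearness in its leading genes Pcdh17 and Cpne9 is a description and no support for the group. Pcdh17 was at 108 CPM in the 23 cells and 17.1 CPM in the 80 Crhr2 and Npy2r cells of other groups. Cpne9 was at 154 against 59.3 CPM and Ppp1r17 at 19.1 against 0.995 CPM. The 23 cells were close to the 42 members in these genes (100.2, 187 and 15.4 CPM). Cited1 was at 545 CPM in the 23 cells, 497 CPM in the 42 members and 278 CPM in the 80 cells, and Gstm7 at 154, 147 and 88.9 CPM. Arhgap36 was at 51.3 CPM in the 23 cells, 211 CPM in the 42 members and 5.87 CPM in the 80 cells, and Rab3b at 75.6, 178 and 24.9 CPM. Htr1a was at 27.5 CPM in the 23 cells, below the 71.5 CPM of the 42 members and the 88.7 CPM of the 80 cells. Asb4, Spp1 and Calcr, which had no read in any member, had no read in the 23 cells either. They were read in 7.50%, 3.75% and 10.0% of the 80 cells, so few or no reads of them are not particular to the members.

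**Figure D5:**
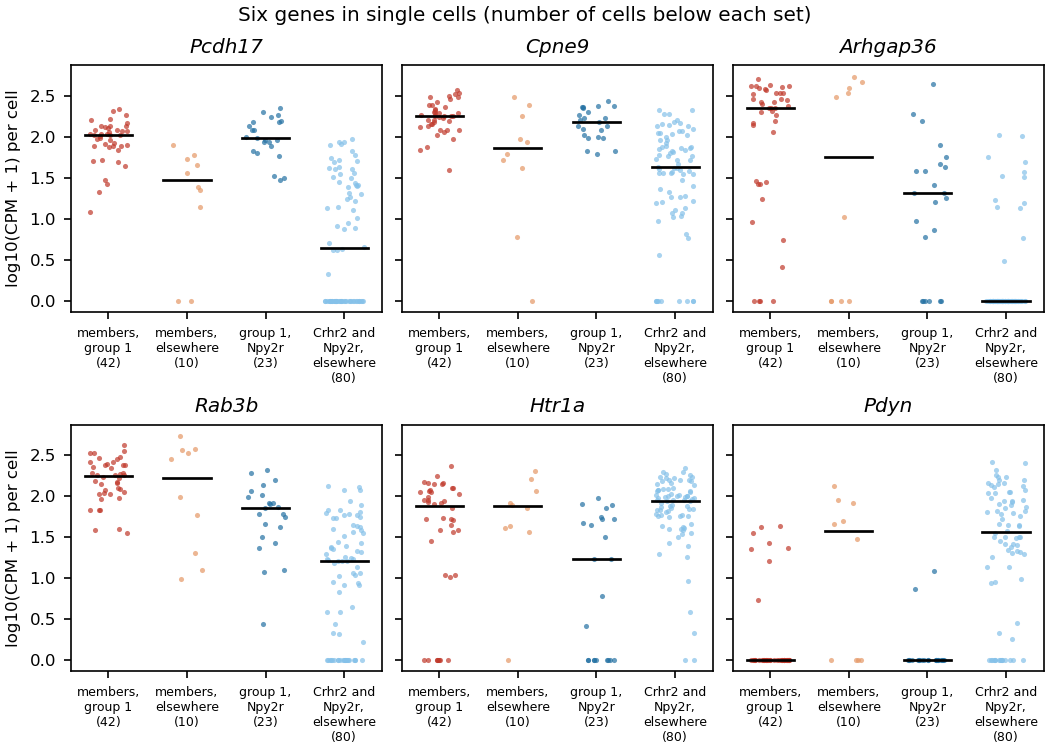
CPM of 6 genes in single cells on the log10(CPM + 1) scale, with the median as a bar, in members inside and outside the leading group (group 1), in cells of group 1 that missed the Npy2r condition alone, and in Crhr2 and Npy2r cells of other groups. Pcdh17 and Cpne9 are alike in both sets of group 1, whereas medians of Arhgap36, Rab3b and Htr1a are lower in its Npy2r cells.

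Beyond the grouping, 13 genes had a read in 30 to 70% of members and a mean of at least 20 CPM, and the 10 with the widest spread on the ln(CPM + 1) scale were Gm26825, Sln, Renbp, Cbln4, Serpinf1, Dlk1, Crym, Pcp4l1, Calb1 and Gpr35. Sln, which encodes sarcolipin, a regulator of the calcium pump, was read in 29 members, at a median of 48.1 CPM in those, and in 31.1% of the other cells. Renbp, which binds renin and converts amino sugars, was read in 25 members at a median of 79.1 CPM in those. Cbln4, a secreted synapse organizer, was read in 31 members, and its highest cell held 17.2% of the sum over members. Dlk1, a membrane ligand related to Notch ligands, was read in 22 members, 42.3% (28.7 to 56.8%), with plate shares from 0 to 100%. The plate shares of Renbp ran from 0 to 80.0% and those of Cbln4 from 25.0 to 80.0%, on plates with 3 to 11 members each.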

How the data were processed

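Per the labels, each cell was 1 Smart-seq2 library. The authors demultiplexed reads with bcl2fastq 2.19.0.316, aligned them to mm10 with STAR 2.6.1a, counted them on genes with HTSeq 0.11.2 without regard to strand, so overlapping and antisense genes are uncertain, and deposited CPM. The version of their annotation is not given in the sources used here. Every CPM value was a whole number of reads within 0.001 (100% of values), from which counts of reads were recovered. Of 1536 labelled cells 999 were in the table and 0 columns were unused. The 25522 genes with reads in at least 3 cells were kept. There are no molecular identifiers, so counts are reads, and intervals cover counting error only. No doublet caller was run, since cells were sorted singly.

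Means, ratios and exact Clopper-Pearson intervals were computed in Python 3.11.15 (NumPy 2.4.6, SciPy 1.17.1). With each set treated as 1 sample, no count model or p-value was used. Groups were made from ln(CPM + 1) with 20 components and the Louvain method of Seurat 5.3.0 in R 4.3.3 at resolution 1, and members were counted by group number. The steps were tested on simulated data. Named genes are the 15 highest and 15 lowest called genes (6 and 6 in the other comparisons). Higher ones had to be read in at least 50% of members, and lower ones in 50% of the comparison cells or with a mean of 20 CPM there. Up to 6 called genes of each list were also named. A fixed set was named in any case, made of serotonin and transmitter genes with Htra1, Ppp1r17 and Dlk1. Adcyap1, Sst, Hcrtr1, Maob, Ddc, Fos, the level of Oxtr against all other cells and the genes compared inside the leading group were added after their values were seen. The members and the gene lists were chosen with earlier results of these data known. Alternatives are given in the closing section. A few genes that the rule names are not reported here.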

Additional observations from a re-analysis of the deposited data

How the results depend on the processing

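With a pseudocount of 5 CPM, 18 genes were called higher than in all other cells, and 14 higher than in the Crhr2 and Npy2r cells. A minimum mean of 1 CPM gave 367, 139 and 263 lower genes against all other cells, the Crhr2 and Npy2r cells and the Irx2 cells, and a minimum of 20 CPM gave 78, 47 and 92 lower genes and 15 genes higher than in the Crhr2 and Npy2r cells, since fewer or more genes were tested. With the 42 members of the leading group alone, a choice made after seeing the data, 37 genes were higher than in the Crhr2 and Npy2r cells. Leaving out each plate gave 29 to 38 higher and 125 to 143 lower genes against all other cells, 21 to 31 and 66 to 85 against the Crhr2 and Npy2r cells, and 53 to 61 and 137 to 158 against the Irx2 cells, with 41 to 50 members, or 6.49 to 7.79% of cells. No named gene lost its call or turned its direction when a plate was left out. Other thresholds of the rule gave 45 to 58 members. The leading group held 90.4% of members with 2000 variable genes or with 30 components, where it grew to 107 and 103 cells and members were 43.9 and 45.6% of it, and 78.8% at a resolution of 0.8. Over the alternatives, called named genes kept their call in 1264 of 1282 refits. Among the lost calls were P2rx2 and Tle2 with a pseudocount of 5 CPM, P2rx2 with 0 reads of Npy2r and Irx2, Adamts2 after thinning, Cnr1 against the Irx2 cells with Rorb of at least 15 CPM, and genes under the minimum of 20 CPM. No paired analysis was possible because no result comes from a test, and the directions within plates, on which each call rests, are a description. Depth limits what can be said of genes read in few cells, and plates with 3 members give coarse means.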
